A study of Mus musculus with 6 samples.

Results

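Transcripts of 10 genes of the annexin, S100 and Ahnak group were followed in cells sorted by an NG2 reporter from the mouse spinal cord. These are Anxa1, Anxa2, Anxa3, Anxa5, S100a4, S100a6, S100a10, S100a11, S100b and Ahnak. They were chosen by symbol, with earlier results of these data known, as were the gene lists used below. All 10 were found among the 38293 genes of the deposited count table. All 10 also passed the filter on low counts that left 16966 genes for testing. There were 3 libraries labelled Control and 3 labelled EAE, for experimental autoimmune encephalomyelitis, in which an immune attack on central nervous system myelin is induced. The mice of both groups were female, of genotype NG2-CreERTM:Rosa-tdTomato/+:Cx3cr1GFP/+, so every animal, Control included, carried an inducible Cre under the NG2 (Cspg4) promoter, a red reporter switched on by it, and a Cx3cr1 allele replaced by green fluorescent protein. The NG2 promoter is active in oligodendrocyte precursors and in the mural cells of vessels, and a cell's descendants keep the red label. Live red cells of the whole cord were sorted after dissociation with actinomycin D, a transcription inhibitor. The labels give no age, no day of disease and no count of animals per library, so a p-value here reflects only how far these libraries vary, which may in part be technical.

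Annexins are cytosolic proteins that bind acidic membrane phospholipids when calcium rises, and they take part in membrane repair, vesicle traffic and the control of inflammation. S100 proteins are small EF-hand proteins, most of which bind calcium, pair up and dock on target proteins, annexins among them. S100A10 has lost calcium binding and joins annexin A2 in a stable complex beneath the plasma membrane, and AHNAK is a giant scaffold protein that binds this complex. In the central nervous system S100B is a classical marker of astrocytes and is also made in the oligodendrocyte lineage, while annexins, AHNAK and several S100 proteins are abundant in vessel, meningeal and immune cells.

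Library totals ran from 22141522 to 28734798 reads. Precursor markers were present in both groups, with Cspg4 at 347 to 375 CPM in Control and 160 to 290 CPM in EAE and Pdgfra at 158 to 342 and 294 to 354 CPM. CPM are reads scaled to a common library size after TMM (trimmed mean of M-values) correction for composition. The sum of 8 precursor markers, these 2 included, was 2099 to 3256 CPM in Control and 3563 to 4991 CPM in EAE. Of the 8, 2 were called higher and 0 lower, against 2.82% and 4.33% of all tested genes. Of 12 pericyte and smooth muscle markers 12 fell, and their summed level was 3639 to 6306 CPM in Control and 536 to 965 CPM in EAE. Of these, 8 kept their call in all 6 fits that left out 1 library. Of 12 endothelial markers 12 fell, from sums of 2031 to 2983 CPM to 532 to 606 CPM, and all 12 kept their call in those fits. Of 6 fibroblast markers tested 3 fell, 1 of them with a call in all 6 of those fits. The sum of all 8 was 52.9 to 98.0 CPM in Control and 19.8 to 33.2 CPM in EAE. Of 11 myeloid markers tested 4 rose, with sums over all 12 of 21.0 to 31.1 CPM in Control and 143, 31.9 and 358 CPM in EAE replicates 1, 2 and 3. No T cell marker passed the filter on low counts, Cd3e included, which had 271 reads in EAE replicate 3 and 12 in replicate 1. Their sum was at most 0.879 CPM in Control and 12.2 CPM in EAE replicate 3. Cybb, a defining myeloid gene, and the T cell genes Cd3d, Cd3e, Cd3g and Cd4 had 0 reads in Control. EAE replicate 3 stands apart in these sums. Cspg4, not called over 6 libraries (edgeR adjusted p = 0.0764), was called lower without it (adjusted p = 0.00176). Of the 4 myeloid markers called higher, Tyrobp, Ptprc and Cybb lost their call without it and Lyz2 did not, and all 4 lost it without any 1 Control library. For the 10 genes, calls that change without EAE replicate 3 are given beside each gene. In bulk samples, fewer cells of a type and less RNA per cell cannot be told apart.

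By the edgeR quasi-likelihood test with Benjamini-Hochberg adjustment, 5 of the 10 genes changed in EAE, against 7.14% of all tested genes. As the members were chosen with earlier results known, the shares given here are a background and not a test of the group. S100b, S100a6 and S100a10 rose, against 2.82% of tested genes called higher. Ahnak and Anxa3 fell, against 4.33% called lower. Anxa1, Anxa2, Anxa5, S100a4 and S100a11 did not pass. The group ranges were separate for 6 genes, the 5 called and S100a4, against 26.8% of tested genes. In 4 of these every EAE library was above every Control library and in 2 below, each of which 13.4% of tested genes showed. For S100a4 the gap was slight and rests on the TMM scaling. Its highest Control library had 5.834 and its lowest EAE library 5.84 CPM per kilobase of gene length. Only Ahnak and S100b among the 6 genes kept their call in each of the 6 fits that left out 1 library, which 2.29% of tested genes did. Without Control replicates 1, 2 and 3 the members called numbered 2, 3 and 4, against 2.49%, 3.27% and 5.43% of the genes tested. Without EAE replicates 1, 2 and 3 they numbered 2, 5 and 5, against 3.57%, 6.24% and 6.56%. The 5 called without EAE replicate 3 were 1 higher and 4 lower: S100a6 and S100a10 dropped out, and Anxa5 and S100a11 came in as lower. DESeq2 called 5 members (12.7% of genes), and limma-voom 3 (5.84%). The median log2 fold change of the 10 genes was -0.26, and that of all tested genes was 0.004.

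**Figure D1:**
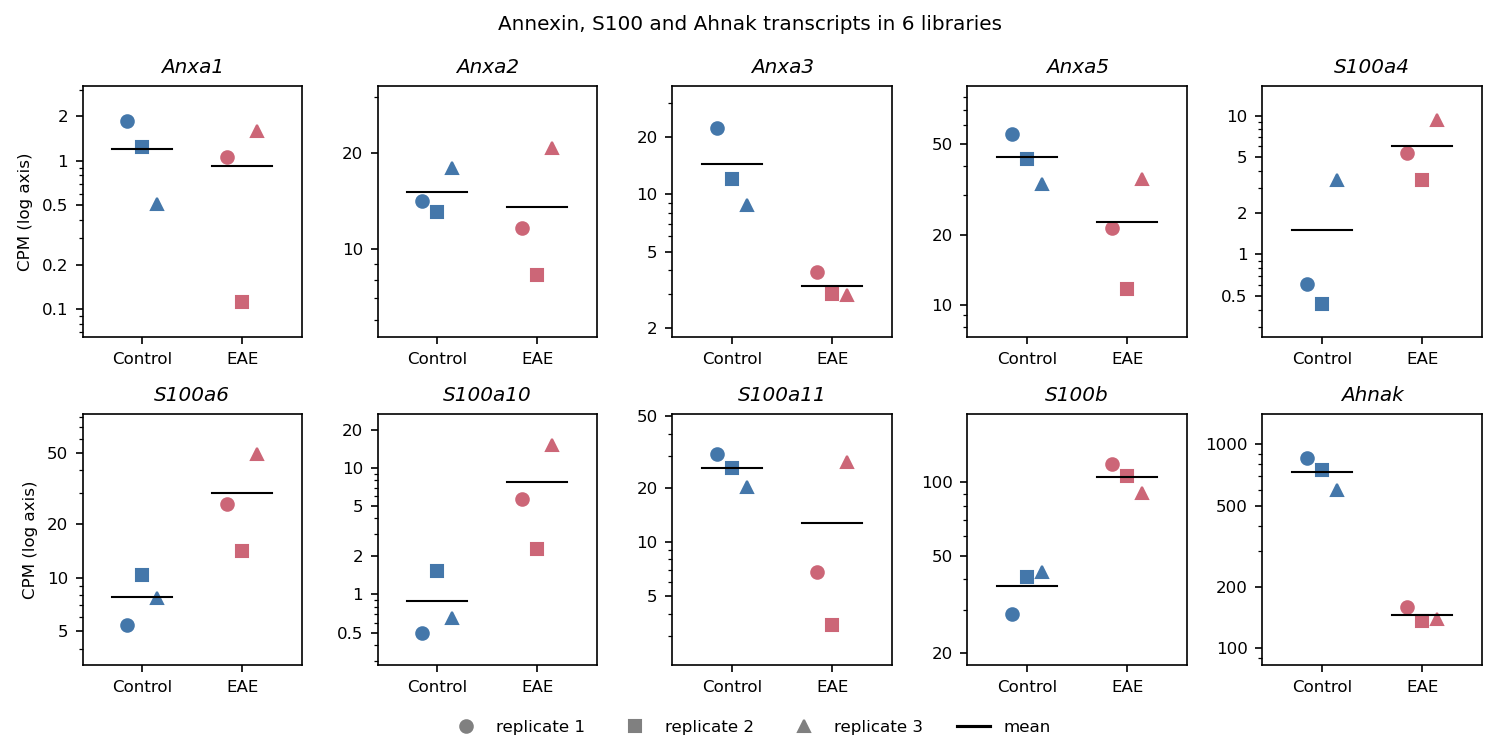
Level of each of the 10 transcripts in CPM, on a log axis, in the 3 Control (blue) and 3 EAE (red) libraries, with a symbol per replicate number and a bar at the group mean. Ahnak (597 to 860.3 against 137 to 160 CPM) and S100b (28.8 to 43.0 against 90.0 to 119 CPM) show separate and narrow groups, and S100a11 shows 1 EAE library at the Control level.

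The sequence before the start site is shown for the called members with an entry, Ahnak, S100b and S100a6, and for Anxa2 and S100a11, the entries that hold an AP-1 motif. RefSeq sequences of GRCm38.p6 were found for 8 of the 10 members, all but Anxa3 and S100a10, and the 250 bases before the RefSeq start are given 5′ to 3′. The gene spans given elsewhere are those of GENCODE M21, whose starts can differ. The windows of Anxa2, S100a6 and S100a11 reach into those spans. Capitals mark matches on either strand. The GC box was searched as GGGCGG. The CCAAT box was searched by the letters of its name. The AP-1 motif was searched as TGANTCA. The STAT motif was searched as TTCNNNGAA. In the sequences shown no match overlapped another.
Ahnak (chr19:8989034-8989283, plus strand): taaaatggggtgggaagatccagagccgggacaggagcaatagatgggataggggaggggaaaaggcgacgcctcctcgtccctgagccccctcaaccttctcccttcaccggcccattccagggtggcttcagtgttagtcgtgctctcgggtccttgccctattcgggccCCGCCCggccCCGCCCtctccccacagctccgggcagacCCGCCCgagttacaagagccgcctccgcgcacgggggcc
S100b (chr10:76253586-76253835, plus strand): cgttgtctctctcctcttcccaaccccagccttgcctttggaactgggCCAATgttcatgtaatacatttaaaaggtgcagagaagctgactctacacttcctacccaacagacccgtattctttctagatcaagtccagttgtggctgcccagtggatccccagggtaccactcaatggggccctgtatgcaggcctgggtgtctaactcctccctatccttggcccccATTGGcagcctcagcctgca
S100a6 (chr3:90612644-90612893, plus strand): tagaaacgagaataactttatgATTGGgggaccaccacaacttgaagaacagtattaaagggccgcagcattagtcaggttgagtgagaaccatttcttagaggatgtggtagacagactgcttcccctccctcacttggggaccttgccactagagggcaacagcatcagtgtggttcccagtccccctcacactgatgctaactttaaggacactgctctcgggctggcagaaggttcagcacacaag
Anxa2 (chr9:69453433-69453682, plus strand): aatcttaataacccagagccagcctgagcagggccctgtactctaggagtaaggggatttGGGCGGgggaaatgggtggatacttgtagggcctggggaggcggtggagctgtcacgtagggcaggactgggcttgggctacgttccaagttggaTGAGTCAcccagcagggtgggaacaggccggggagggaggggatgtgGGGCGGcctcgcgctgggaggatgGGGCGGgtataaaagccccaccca
S100a11 (chr3:93520246-93520495, plus strand): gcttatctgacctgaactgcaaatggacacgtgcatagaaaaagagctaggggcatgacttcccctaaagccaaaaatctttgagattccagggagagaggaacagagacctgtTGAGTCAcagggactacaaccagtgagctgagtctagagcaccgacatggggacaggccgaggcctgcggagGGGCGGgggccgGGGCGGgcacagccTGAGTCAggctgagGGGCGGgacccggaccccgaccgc

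Ahnak, which fell, had 3 GC boxes and 18 CpG dinucleotides in its window, and S100b and S100a6, which rose, had 0 GC boxes and 2 and 3 CpG. Of the uncalled members with an entry, Anxa2 and S100a11 had 3 GC boxes each, and Anxa1, Anxa5 and S100a4 had 0. The median over 32851 promoters was 6 CpG, and 32.7% of them held a GC box. S100b had 2 and S100a6 had 1 CCAAT box, which 33.8% of promoters held. Anxa2 had 1 and S100a11 had 2 AP-1 matches, against 6.75% of promoters with an AP-1 match. None of the 8 members with an entry had a STAT match, which 7.02% of promoters held. A match is a run of letters and was not tested for binding or for a link with the direction of change.

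Ahnak, the scaffold, was the most abundant of the 10 in Control by CPM and had the largest fall. It stood at 860.3, 746 and 597 CPM in Control replicates 1, 2 and 3 and at 160, 137 and 140 CPM in EAE replicates 1, 2 and 3. The groups were far apart, and the EAE libraries differed little from each other. Mean levels were 734 ± 132 and 145 ± 12.5 CPM (SD, n = 3 per group here and throughout), a 5.05-fold fall (log2 fold change -2.34 ± 0.18, SE here and throughout, edgeR adjusted p = 8e-04). Leaving out 1 library moved the fold from 4.62 to 5.53 and the adjusted p to at most 0.00761. The gene spans chr19:8989284-9076914 on the plus strand of GRCm38 (ENSMUSG00000069833). Pericyte, smooth muscle and endothelial marker sums fell with Ahnak, 6.96-fold and 4.22-fold in the ratio of group means, and their part in its fall was not tested.

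Among the annexins, Anxa3 fell, and the other 3 did not pass the test. Anxa3, an annexin abundant in endothelium and neutrophils, was at 22.2, 11.99 and 8.75 CPM in Control replicates 1, 2 and 3 and at 3.91, 3.02 and 2.96 CPM in the EAE libraries. Every EAE library lay below every Control library. The fall was 4.34-fold (log2 fold change -2.12 ± 0.40, edgeR adjusted p = 0.0151). It lost its call without Control replicate 1 (adjusted p = 0.0657) and without EAE replicate 1 (adjusted p = 0.0501). Anxa3 lies at chr5:96793339-96845966 on the plus strand (ENSMUSG00000029484). The vessel marker sums given above moved in the same direction, and their part was not tested.

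Anxa5, whose protein binds exposed phosphatidylserine and is the usual probe for dying cells, stood at 54.9, 42.8 and 33.5 CPM in Control and at 21.5, 11.7 and 35.1 CPM in EAE replicates 1, 2 and 3. EAE replicate 3 reached the Control range and the other 2 EAE libraries lay below it. The difference did not pass over 6 libraries (log2 fold change -0.94 ± 0.37, edgeR adjusted p = 0.190) and passed without EAE replicate 3 (log2 fold change -1.38 ± 0.32, adjusted p = 0.0379). Anxa2, the partner of S100A10, showed no separation, with 14.2, 13.1 and 18.0 CPM in Control and 11.7, 8.31 and 20.7 CPM in EAE (log2 fold change -0.15 ± 0.35, adjusted p = 0.867). Anxa1, a mediator that limits leukocyte recruitment through formyl peptide receptors, was sparse, at 1.85, 1.25 and 0.509 CPM in Control and 1.07, 0.112 and 1.595 CPM in EAE. It had 87 reads in Control and 80 in EAE, of which 3 were in EAE replicate 2 and 48 in EAE replicate 3, and the groups overlapped (log2 fold change -0.38 ± 0.94, adjusted p = 0.880). The sign of both Anxa1 and Anxa2 turned when EAE replicate 2 was left out (log2 fold changes 0.14 and 0.10). The 3 genes lie at chr3:36448923-36475894 (Anxa5, minus strand), chr9:69453620-69491795 (Anxa2, plus strand) and chr19:20373428-20390944 (Anxa1, minus strand).

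S100b rose, and of the 3 members that rose it alone kept its call whichever library was left out. It was at 28.8, 40.9 and 43.0 CPM in Control replicates 1, 2 and 3 and at 119, 106 and 90.0 CPM in EAE. No EAE library came near the Control range. Means of 37.6 ± 7.68 and 105 ± 14.3 CPM made a 2.79-fold rise (log2 fold change 1.48 ± 0.20, edgeR adjusted p = 0.00382), with an adjusted p of at most 0.0217 when 1 library was left out. Unlike the other called S100 members, S100b was lowest in EAE replicate 3. The gene lies at chr10:76253853-76261159 on the plus strand (ENSMUSG00000033208). Of 7 markers of newly formed oligodendrocytes 6 rose, from sums of 942 to 1238 CPM to 2405 to 2991 CPM, against 2.82% of tested genes called higher. Of these 6, 3 kept their call in all 6 fits without 1 library. The summed level of 7 astrocyte markers, most of it Slc1a2, overlapped between groups, at 220 to 424 and 241 to 344 CPM. Gfap, another astrocyte gene outside that sum, rose 8.81-fold (adjusted p = 0.00876). Aqp4, within it, was at 1.33 to 5.92 CPM in Control and 5.27 to 16.2 CPM in EAE and did not pass (adjusted p = 0.162). The part of these cell types in the rise of S100b was not tested.

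S100a6 (calcyclin), which binds annexins and calcyclin-binding protein, rose from a low level. The Control libraries had 5.43, 10.3 and 7.68 CPM, and EAE replicates 1, 2 and 3 had 25.9, 14.2 and 49.7 CPM. The groups did not overlap, and the EAE libraries spread widely. The rise was 3.83-fold (7.82 ± 2.46 to 29.9 ± 18.1 CPM, log2 fold change 1.94 ± 0.45, edgeR adjusted p = 0.0360). S100a10 (p11), the annexin A2 partner and a plasminogen receptor, was sparse in Control, at 0.493, 1.53 and 0.648 CPM or 64 reads in all. In EAE it had 5.71, 2.31 and 15.1 CPM, 672 reads in all, again separate from Control with a wide spread. The rise was 8.61-fold (log2 fold change 3.11 ± 0.76, adjusted p = 0.0433). Each gene kept its call only without EAE replicate 2. In the other 5 fits without 1 library the adjusted p reached 0.144 for S100a6 and 0.159 for S100a10. Without EAE replicate 3 the folds were 2.58 and 4.53, and without Control replicate 2 that of S100a10 was 13.4.

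S100a4 (metastasin), a protein of motile, mesenchymal and immune cells that binds non-muscle myosin, was at 0.617, 0.443 and 3.43 CPM in Control replicates 1, 2 and 3 and at 5.38, 3.43 and 9.34 CPM in EAE. The lowest EAE library and the highest Control library nearly touched. It missed the threshold (log2 fold change 2.02 ± 0.79, edgeR adjusted p = 0.188) and passed it without Control replicate 3 (11.3-fold, adjusted p = 0.0203). S100a11, which docks on annexin A1, was at 30.9, 26.0 and 20.1 CPM in Control and at 6.85, 3.47 and 28.0 CPM in EAE replicates 1, 2 and 3. In EAE replicate 3 it was at the Control level, and in the other 2 EAE libraries it was far below it. Over 6 libraries the difference did not pass (log2 fold change -1.01 ± 0.64, adjusted p = 0.449), and without EAE replicate 3 it was a 4.92-fold fall (log2 fold change -2.30 ± 0.37, adjusted p = 0.00803). S100a4 lies at chr3:90603771-90606045 and S100a11 at chr3:93520488-93526287, both on the plus strand. S100a11 shares 41.1% of its 50-base stretches with annotated copies, so its counts are uncertain. The copies with a row, Gm12854 and Gm7665, held 1748 reads, beside 1832 Control and 1120 EAE reads of S100a11 itself. S100a4 shares 47.4% with a read-through gene that has no row in the deposited table, and Anxa3 shares 1.8% with another gene.

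**Figure D2:**
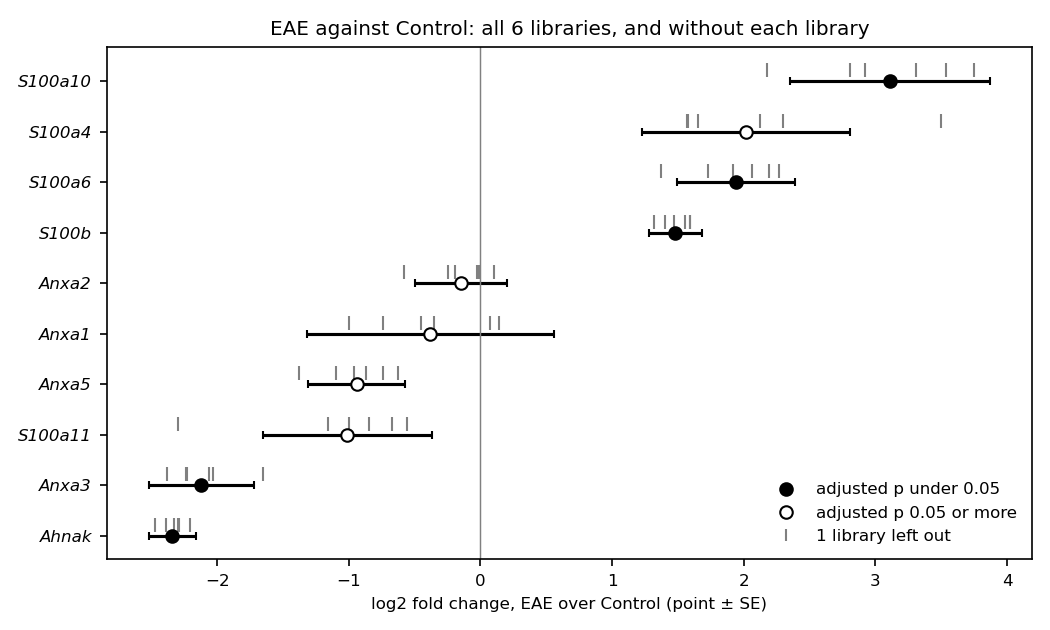
Log2 fold change of EAE over Control for the 10 genes with its SE, filled where the edgeR adjusted p was under 0.05, with grey ticks for the 6 fits that left out 1 library. The ticks lie close together for Ahnak (-2.47 to -2.21) and S100b (1.32 to 1.59) and spread for S100a11 (-2.30 to -0.56) and S100a4 (1.57 to 3.50).

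The 3 EAE libraries did not agree on most of these genes. In 7 of the 10, EAE replicate 3 was highest and EAE replicate 2 lowest, a pattern that 24.8% of tested genes showed. The pattern was set from these same data, so its count among the members is a description and not a test against that share. The 7 were Anxa1, Anxa2, Anxa5, S100a4, S100a6, S100a10 and S100a11. Between these 2 libraries S100a11 differed 8.07-fold, S100a10 6.55-fold, S100a6 3.50-fold and Anxa5 3.00-fold. Ahnak, Anxa3 and S100b differed little, with ratios of EAE replicate 3 to replicate 2 of 1.02, 0.980 and 0.849. Of the 11 myeloid markers tested 9 showed the pattern too, and 0 of 12 pericyte and smooth muscle and 3 of 12 endothelial markers did. The other marker lists were not counted, and the pattern was not confined to myeloid genes. Cspg4 (169, 160 and 290 CPM in EAE replicates 1, 2 and 3), Gfap and the fibroblast genes Col1a2, Col3a1 and Dcn showed it. The fibroblast genes Igf2 and Fbln1, the precursor gene Olig2 and the astrocyte gene Aqp4 did not. The part of myeloid or other transcripts in the levels of the 7 genes was not tested.

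**Figure D3:**
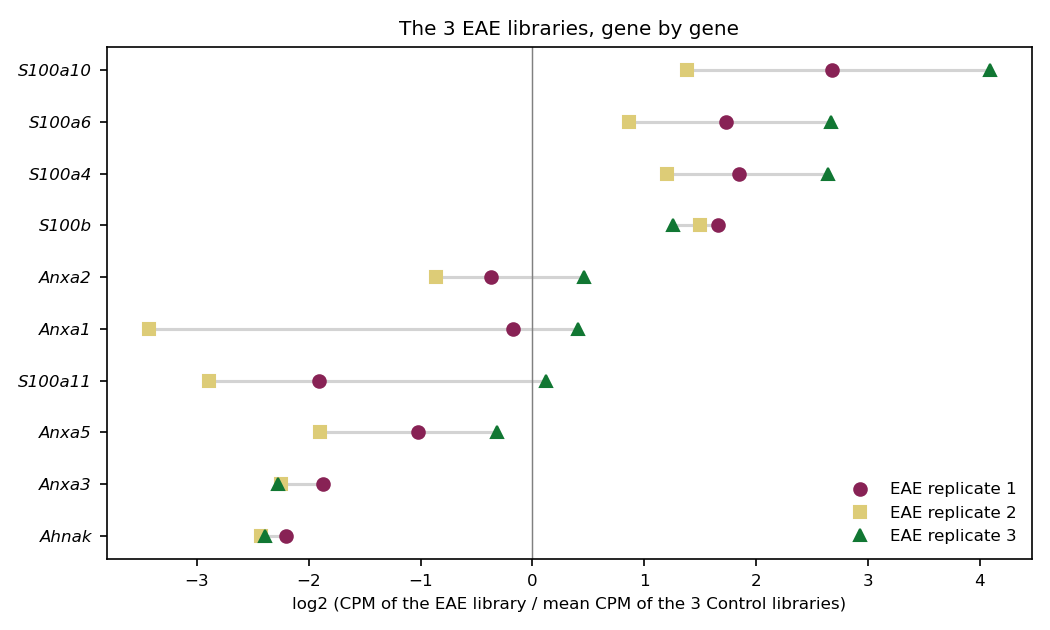
Log2 ratio of each EAE library to the mean of the 3 Control libraries for the 10 genes, with a symbol and colour per EAE replicate. In 7 genes replicate 3 lies to the right and replicate 2 to the left, as for S100a10 (4.09 and 1.38), while the 3 libraries nearly coincide for Ahnak (-2.20, -2.43 and -2.39).

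The transcripts of the S100A10 and annexin A2 complex were also compared within each library, as reads per kilobase of the deposited gene length, a ratio that needs no scaling between libraries. In Control replicates 1, 2 and 3 the ratio of S100a10 to Anxa2 was 0.107, 0.359 and 0.111. In EAE it was 1.51, 0.856 and 2.25. All EAE libraries lay above all Control libraries, and S100a10 exceeded Anxa2 in 2 of the 3. The difference was 3.14 on the log2 scale, 8.79-fold, with an SD of 0.99 in Control and 0.70 in EAE. The 2-sided exact permutation p was 0.1, the smallest that 3 against 3 libraries can give.

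**Figure D4:**
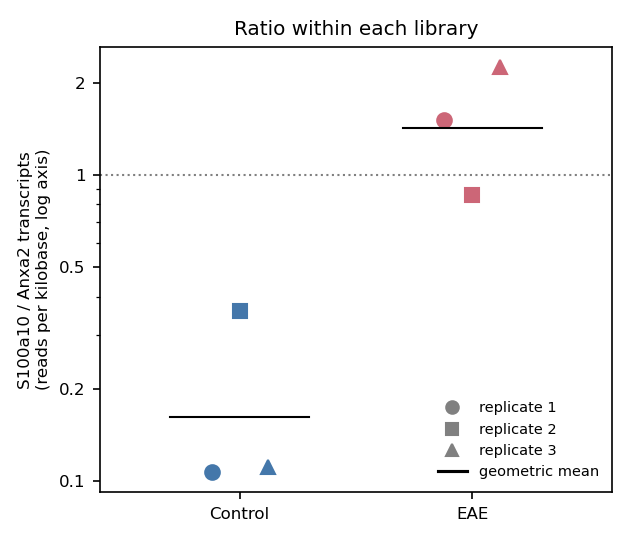
Ratio of S100a10 to Anxa2 reads per kilobase in each library, on a log axis, with a bar at the geometric mean of each group and a dotted line at equal levels. The Control libraries sit between 0.107 and 0.359 and the EAE libraries between 0.856 and 2.25.

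Per kilobase of the deposited gene length, the order of the 10 transcripts changed between groups. The counts of S100a11 are uncertain, as given above, and so is its place. In Control it was S100a11 (50.2 ± 10.6 CPM per kilobase), Ahnak (39.6 ± 7.13), Anxa5 (26.1 ± 6.40), S100b (25.3 ± 5.17), S100a6 (10.9 ± 3.42), Anxa3 (8.96 ± 4.39), Anxa2 (4.05 ± 0.68), S100a4 (2.55 ± 2.85), S100a10 (0.734 ± 0.461) and Anxa1 (0.461 ± 0.257). Neighbours in that order overlapped over the libraries, except that S100b stood above S100a6 and Anxa3 above Anxa2. The deposited lengths of Anxa3 and S100a6, 1597 and 719 bp, are well below their exonic bases in GENCODE M21, 3643 and 1367 bp. The places of these genes in both groups, and the separation of Anxa3 from Anxa2, thus depend on the length used. In EAE the order was S100b (70.7 ± 9.64), S100a6 (41.6 ± 25.2), S100a11 (25.0 ± 26.0), Anxa5 (13.6 ± 7.00), S100a4 (10.3 ± 5.13), Ahnak (7.84 ± 0.676), S100a10 (6.36 ± 5.48), Anxa2 (3.64 ± 1.72), Anxa3 (2.06 ± 0.332) and Anxa1 (0.355 ± 0.288). All neighbours overlapped there except Anxa3 and Anxa1. Ahnak thus went from the second place to the sixth and S100b from the fourth to the first. Summed per kilobase, the 5 S100 members held 85.4 to 94.8 in Control and 106 to 213 in EAE, and the 4 annexins 30.4 to 51.1 and 11.1 to 28.9.

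In the wider families, of 12 annexin genes 9 were tested and 2 fell, Anxa3 and Anxa7, against 4.33% of all tested genes called lower. Anxa7, a membrane-fusing annexin also called synexin, went from 21.7 ± 2.09 to 10.6 ± 2.51 CPM (2.05-fold, edgeR adjusted p = 0.0386) and kept its call only without EAE replicate 3, with an adjusted p of up to 0.169 in the others. Anxa6, Anxa4 and Anxa11 did not pass, at log2 fold changes of 0.09, 0.61 and -0.86. Of 17 S100 genes 16 had a row, 9 were tested, and 4 rose, against 2.82% of all tested genes called higher: the 3 members named above and S100a1, a calcium sensor best known from heart muscle. S100a1 went from 21.3 ± 3.03 to 85.6 ± 16.1 CPM, 4.02-fold (log2 fold change 2.01 ± 0.20, adjusted p = 0.00125), with a call in all 6 fits without 1 library. Like S100b, it was lowest among EAE libraries in replicate 3, at 68.0 CPM against 99.7 and 89.0. S100a16, per kilobase above the mean of each S100 member in both groups (75.8 and 86.0 CPM per kilobase), did not pass (122.5 ± 11.6 and 139 ± 27.3 CPM by gene, adjusted p = 0.648), and S100a13 and S100a3 did not pass either (adjusted p = 0.773 and 0.674).

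The S100 genes of chromosome 3 lie in a row from S100a1 to S100a9 over 184688 bp, with S100a11 and S100a10 2.82 Mb further on. S100a1 (minus strand) and S100a13 (plus strand) lie with their starts 43 bp apart, and they had log2 fold changes of 2.01 and -0.20. S100a6 (chr3:90612882-90624181, plus strand, ENSMUSG00000001025) lies between S100a5 and S100a7a, which both had 0 reads in every library, and S100a4 is on the far side of S100a5. S100a11 and S100a10 (chr3:93555080-93564643, plus strand, ENSMUSG00000041959) are 28793 bp apart, with log2 fold changes of -1.01 ± 0.64 and 3.11 ± 0.76. The difference between neighbours was not tested.

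**Figure D5:**
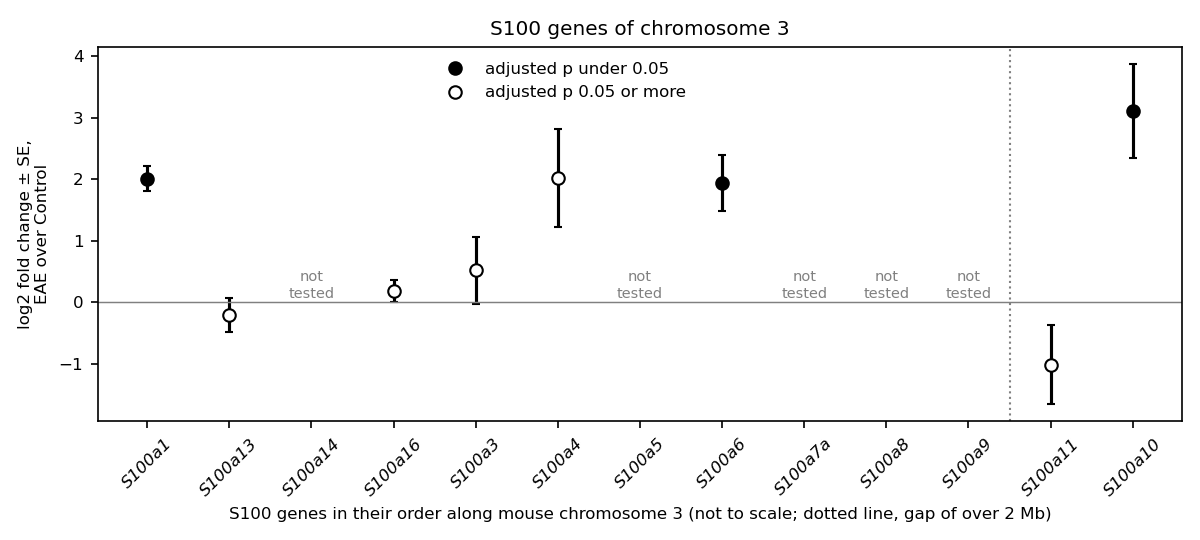
Log2 fold change of EAE over Control with its SE for the 13 S100 genes of chromosome 3 in their order along it, filled where the adjusted p was under 0.05. S100a1, S100a6 and S100a10 are filled, at 2.01, 1.94 and 3.11, S100a4 is open at 2.02, S100a11 lies at -1.01, and 5 genes had too few reads to test.

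Of 21 receptors, binding partners and Ahnak relatives chosen as a list, 16 were tested, with 3 higher and 4 lower, Ahnak itself among the lower. Of all tested genes 2.82% were called higher and 4.33% lower. Myh9, the non-muscle myosin heavy chain bound by S100A4, fell 3.08-fold (185 ± 35.9 to 60.0 ± 5.68 CPM, edgeR adjusted p = 0.00186) and kept its call in all 6 fits. Cacna1c, the pore subunit of the L-type calcium channel whose beta subunit AHNAK binds, fell 2.60-fold (adjusted p = 0.0164, with the call lost without Control replicate 2 or EAE replicate 1, up to 0.0740). Kcnk3, a potassium channel that S100A10 can carry to the membrane, fell 3.49-fold (adjusted p = 0.0198, and up to 0.0874 in the fits without Control replicate 1, Control replicate 2 or EAE replicate 1, where the call was lost). Another gene overlaps 5.8% of its exonic bases. These 3 fell alongside the vessel marker sums, whose part was not tested.

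Plgrkt, a plasminogen receptor, rose 2.30-fold (11.01 ± 3.81 to 25.3 ± 3.79 CPM, edgeR adjusted p = 0.0409) and kept its call only without Control replicate 2 (adjusted p up to 0.128 in the others). Gfap, the astrocyte filament protein that S100B binds, had 3.17 ± 0.951 CPM in Control and 17.4, 15.1 and 51.3 CPM in EAE, with the astrocyte sums as given above. Its 8.81-fold rise (adjusted p = 0.00876) was 5.16-fold without EAE replicate 3 and missed the threshold without Control replicate 2 (adjusted p = 0.0512). Ahnak2, the relative of Ahnak, had 7 reads in Control, all in replicate 1, and 767 in EAE, 661 of them in replicate 3, where it was at 3.10, 0.820 and 21.97 CPM. It was called higher (adjusted p = 0.0411) while Ahnak was called lower, and lost the call in 5 of 6 fits without 1 library (adjusted p up to 0.144). Plat, Vim and Hltf, the most abundant uncalled genes of the list, did not pass over 6 libraries (adjusted p = 0.720, 0.705 and 0.563). Vim (vimentin) had 34.7, 14.7 and 124 CPM in the EAE libraries and was called lower without EAE replicate 3 (adjusted p = 0.0274).

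Of 13 further genes of membrane repair 12 were tested and 1 was called, a share near the 7.14% of all tested genes. It was Dysf, called lower, whose protein dysferlin binds annexins at wounds (9.42 ± 4.90 to 1.83 ± 0.700 CPM, 5.15-fold, edgeR adjusted p = 0.0333). It kept its call only without Control replicate 3 (adjusted p up to 0.130 in the others), and another gene overlaps 5.5% of its exonic bases. Capns1, Pdcd6ip and Capn2 did not pass (log2 fold changes -0.06, 0.04 and -0.60), though Capn2 was called lower without EAE replicate 3 (adjusted p = 0.0219). Of 14 EF-hand calcium sensors outside the S100 family 10 were tested and 1 was called, again near the 7.14% of all tested genes. It was Efhd2 (swiprosin-1), which fell from 39.1 ± 6.57 to 9.89 ± 2.87 CPM (3.96-fold, adjusted p = 0.00420), with a call in all 6 fits. Calm2 and Calm3 had log2 fold changes of -0.23 and -0.21 and did not pass. Other annotated genes overlap 27.1% of the exonic bases of Capn2 and 8.2% of Capns1, whose counts are uncertain to that extent.

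The genes whose log2 CPM ran most closely alongside 3 members over the 6 libraries were named as a description, among 8382 genes with a mean of at least 10 CPM. The 6 points share the split into groups, so a large group difference by itself gives a high value. For Ahnak they were Fcgrt (Pearson r = 0.999), the organic anion transporter gene Slc22a8, Myl6, the phospholipid transfer protein gene Pltp and Itm2a. For S100b they were Rapgef1 (r = 0.995), Gpr17 (r = 0.995), a receptor of committed oligodendrocyte precursors, Ints6, the migrating neuroblast gene Dcx and Lsamp. For Anxa2 they were Scpep1 (r = 0.998), Pkig, Pml, Irf2bpl and Plxna1. Pearson r does not reflect the size of a change. Mean levels in Control and EAE were 734 and 145 CPM for Ahnak and 73.0 and 53.3 CPM for Myl6. The other genes named beside Ahnak fell more than Myl6, as Fcgrt from 31.6 to 5.86 CPM. After group means were removed, the 4 pairs of members with the highest r over the 6 libraries were S100a6 with S100a10 (0.98), Anxa1 with Anxa5 (0.96), Anxa3 with Ahnak (0.95) and Anxa5 with S100a11 (0.94). They were picked as the highest of all pairs among the 10 members. With the group means removed, 6 libraries leave few free values, so a high r is easily reached. Anxa1 had 3 reads in EAE replicate 2.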

How the data were processed

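The authors deposited whole-number read counts for 38293 Ensembl genes and a feature length per gene, per the file headers. FastQC, STAR, featureCounts, edgeR 3.24.3 and mm10 are named, without roles, per the submitters' processing notes. No source used here states the annotation, the strand setting or how multi-mapping reads were treated. No rows lacked a gene. Symbols were matched by Ensembl identifier for 36345 genes (94.9%), with coordinates from GENCODE M21 (GRCm38). Feature lengths were used as deposited.

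The 3 Control and 3 EAE libraries, grouped by title, were compared with edgeR 4.0.16 in R 4.3.3. Genes passing filterByExpr (minimum count 10, total 15) entered the robust quasi-likelihood F test with TMM scaling, 2-sided, adjusted over 16966 genes and called under 0.05. The SE is the log2 fold change divided by the square root of F. The biological coefficient of variation was 39.6%. CPM, log2 CPM (prior count 2) and CPM per kilobase were computed from the deposited counts. The fit was tested on simulated data. The exact permutation test used scipy 1.17.1. Reads that are PCR copies of 1 molecule are counted separately.

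Named genes were the 10 members, the called genes of the family, partner, repair and EF-hand lists, at most 3 abundant uncalled genes per list (1 gene of the EF-hand list is not reported here), and the 5 genes most correlated with Anxa2, Ahnak and S100b. Of 172 list genes 2 had no row, S100a7l2 and Lhfpl3. Members and lists were chosen with earlier results of these data known. Alternatives were other scalings, filters, DESeq2 1.42.0, limma 3.58.1 (voom), a replicate block and leaving out each library.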

Additional observations from a re-analysis of the deposited data

How the results depend on the processing

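The count of 5 called members was 5 under upper-quartile and RLE factors, library sizes alone, both other filters and DESeq2, and 3 under limma-voom, where S100a6 (adjusted p = 0.0908) and S100a10 (0.190) lost their call. Leaving out 1 library gave 2 to 5 members, 440 to 1150 called genes in all, 0 to 3 annexins, 2 to 4 S100 genes, 3 to 6 receptors and partners and 0 to 1 repair genes. The log2 ratio of S100a10 to Anxa2 ranged from 2.81 to 3.71 in these fits. In log2 fold change Anxa1 ran from -1.0 to 0.14, turning sign without Control replicate 1 (0.07) and EAE replicate 2, and Anxa2 from -0.58 to 0.10. DESeq2 called 2162 genes against 1212. With limma-voom, 2 S100 genes and 0 repair genes were called, and with library sizes alone 1 annexin. The cause of these changes was not tested.

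Control and EAE share replicate numbers, but no label says that a number marks a shared animal, litter or day. The libraries were therefore not paired in the main test. Deviations from the group means of same-numbered libraries correlated at 0.0157, -0.0399 and -0.0336, and not every library correlated best with its own number. Values this small, with 3 libraries a group, cannot settle whether the libraries were paired. With the replicate block, 818 genes, 3 members (S100a6 at adjusted p = 0.0991 and S100a10 at 0.149 lost), 1 annexin, 2 S100 genes, 4 receptors and partners and 0 repair genes were called, and the ratio stayed at 3.14. Anxa1 (87 Control and 80 EAE reads) and S100a10 (64 and 672) rest on few reads. The part of depth in their error was not tested. No replicate pair agreed within counting noise.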

Other observations

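S100a8 and S100a9, which encode the 2 chains of calprotectin in neutrophils and monocytes, were too sparse to test. They were singled out after their values were seen. Both had 0 reads in each Control library, which allows up to 3 reads per library. S100a8 had 3, 0 and 27 reads and S100a9 had 5, 0 and 120 reads in EAE replicates 1, 2 and 3. Fpr2, a receptor for annexin A1, had 0 reads in 5 libraries and 48 reads in EAE replicate 3. The remaining annexin genes that were not tested had 0 reads in 5 or 6 libraries, with 1 read of Anxa8 in EAE replicate 1. Summed marker levels of neurons were 13.4 to 26.4 CPM in Control and 11.7 to 18.0 CPM in EAE, those of Schwann cells 2.50 to 7.11 and 3.59 to 4.96 CPM, and those of ependymal cells 15.8 to 38.6 and 22.1 to 25.8 CPM. Mature oligodendrocyte markers summed to 28340 to 33310 and 24530 to 42360 CPM with 1 of 8 called higher. Precursor markers summed to 2099 to 3256 and 3563 to 4991 CPM with 2 of 8 called higher. Of all tested genes 2.82% were called higher. The mature marker called was Klk6, at 86.0, 42.5 and 725 CPM in EAE replicates 1, 2 and 3. Klk6 lost its call without any 1 Control library.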
